A study of Mus musculus with 9 samples.

Results

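MHC class II presentation was followed through 7 genes of the mouse, namely the class II chain genes H2-Aa, H2-Ab1 and H2-Eb1, the peptide-exchange genes H2-DMa and H2-DMb1, the invariant chain gene Cd74 and the transactivator gene Ciita. They were chosen by name, as the class II chain, exchange, invariant chain and transactivator genes, with earlier results of these data known. Of 55403 genes and transgenes counted, 14665 passed the filter on low counts, and all 7 are among them. RNA had been sequenced from mammary tumors of female C57BL/6 MUC1.Tg MMTV-PyMT (MMT) mice, in which a mammary tumor virus promoter active in mammary epithelium drives the polyoma middle T oncogene and which also carry a human MUC1 transgene. The 4 control tumors (WT; Hspa1a/Hspa1b+/+) came from animals of 122 to 132 days and the 5 tumors without HSP72, the stress-inducible HSP70 chaperone (KO; Hspa1a/Hspa1b-/-), from animals of 120 to 125 days. The series asks what in these tumors depends on HSP72. The tumors had been digested with collagenase and trypsin and the cells pelleted before RNA extraction, so the libraries hold the cells that came through that step. The labels number the tumor samples and name no animals or batches, so a p-value here reflects only how these samples vary, which may be technical.

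Class II molecules are pairs of an alpha and a beta chain that carry peptides from endosomes to the cell surface, where CD4 T cells read them. The chains are assembled on the invariant chain, encoded by Cd74, which fills the groove and guides the complex to endosomes. There cathepsins cut the invariant chain down to a short fragment, and H2-DM exchanges that fragment for an antigen peptide. Dendritic cells, macrophages and B cells make class II molecules constantly, and many other cells, tumor epithelium among them, do so under interferon gamma. Both routes act through CIITA, a protein that does not bind DNA itself but docks on factors held at the promoters of all these genes.

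Those factors sit on the X and Y boxes, 2 short elements just upstream of each class II gene: RFX proteins bind the X box, CREB-family proteins its downstream edge, and NF-Y the Y box. Promoter windows from RefSeq (GRCm38.p6), each reaching from 250 bases before to 50 bases after a gene start, were listed for 4 of the 7 members, H2-Aa, H2-Eb1, H2-DMb1 and H2-DMa. The 3 windows below belong to members whose levels moved together or apart in the tumors. Each held a match to the Y box, beside an X box match in H2-Eb1 and H2-DMb1 and a CREB site match in H2-Aa. They are written 5' to 3' on the gene's strand, with every match to a searched motif in capitals. The motifs were TGATTGG for the Y box, and for the X box AAC, any 3 bases, TG, any 1 base and TG, together with TGACGTCA, the palindromic CREB site, each searched on both strands and spelled out after these windows had been read. No 2 of the motifs overlap in them.
H2-Aa, chr17:34287774-34288073, minus strand: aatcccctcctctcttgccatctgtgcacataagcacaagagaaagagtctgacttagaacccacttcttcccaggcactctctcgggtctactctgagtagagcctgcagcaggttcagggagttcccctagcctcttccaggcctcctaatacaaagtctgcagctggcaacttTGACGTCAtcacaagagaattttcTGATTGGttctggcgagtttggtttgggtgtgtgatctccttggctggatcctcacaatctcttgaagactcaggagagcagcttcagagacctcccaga
H2-Eb1, chr17:34305617-34305916, plus strand: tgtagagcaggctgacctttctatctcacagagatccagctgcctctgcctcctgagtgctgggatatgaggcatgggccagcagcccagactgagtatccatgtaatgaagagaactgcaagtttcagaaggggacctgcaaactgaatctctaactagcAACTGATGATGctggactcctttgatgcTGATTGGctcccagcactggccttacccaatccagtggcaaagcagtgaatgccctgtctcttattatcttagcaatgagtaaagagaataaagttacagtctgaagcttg
H2-DMb1, chr17:34152941-34153240, plus strand: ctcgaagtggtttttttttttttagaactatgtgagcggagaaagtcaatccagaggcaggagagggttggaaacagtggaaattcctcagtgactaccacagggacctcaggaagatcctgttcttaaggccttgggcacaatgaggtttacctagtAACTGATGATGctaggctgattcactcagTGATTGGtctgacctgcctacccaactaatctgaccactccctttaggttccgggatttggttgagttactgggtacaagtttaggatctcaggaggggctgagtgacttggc
In H2-Eb1 the X motif began 89 bases before the gene start and the Y motif 61 bases before it. H2-DMb1 had them in the same order, 92 and 63 bases before the start used for its window. That start lies downstream of the annotated gene start at 34153072, so both motifs fall inside the annotated gene span. In H2-Aa the CREB palindrome stood 74 bases and the Y motif 50 bases before the start, and the X motif as spelled was not found in that window. Of 32851 promoter windows of this length, 7.82% held the Y motif, 2.96% the X motif, 1.79% the palindrome, 0.332% both X and Y motifs and 0.152% both the palindrome and the Y motif. The 2 windows listed for H2-DMa, both downstream of its annotated gene start, held none of the 3 motifs. A match is a match of letters and was not tested as a binding site.

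The libraries matched their labels at the targeted locus. In WT, Hspa1b ranged from 28.7 to 81.1 CPM, the level of a gene as counts scaled to a common library size, whereas no KO library exceeded 0.657 CPM. Hspa1a ranged from 3.99 to 9.77 CPM in WT, and the KO libraries reached at most 1.64 CPM. Each library held 4410399 to 6221181 fragments counted on genes, and 0 counts allowed up to 0.489 to 0.698 CPM (3 counts, for counting error only). Summed over 7 markers of luminal tumor epithelium, WT libraries held 3218 to 6236 CPM and KO libraries 2923 to 3651 CPM. WT 1 and WT 4 stood apart by the summed level of 5 casein genes, milk proteins of differentiated mammary cells, with 15360 and 11166 CPM where the other 7 libraries had 2222 to 7857 CPM. The member with the fewest reads, H2-DMb1, had 25 to 62 counts per library, and the one with the most, Cd74, had 831 to 2857.

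The class II chains and the invariant chain had lower mean levels in KO tumors, by 1.72-fold to 1.86-fold, but none of the 7 members passed the test. H2-Aa, H2-Eb1, Cd74 and H2-Ab1 had log2 fold changes between -0.90 and -0.78, whereas H2-DMa, H2-DMb1 and Ciita had values between -0.30 and -0.19. All 7 fold changes were negative, with a median of -0.78, where 50.0% of the 14665 genes tested were negative and their median was -7.8e-05. No member was called by edgeR (quasi-likelihood F test, Benjamini-Hochberg adjusted p under 0.05), where 0.0886% of all genes tested were, 0.0341% as lower in KO. At an unadjusted p under 0.05 edgeR had 4 of the 7 members, all lower in KO, where 7.95% of all genes reached that level in either direction and 4.59% as lower in KO. These 4, H2-Aa, H2-Ab1, H2-Eb1 and Cd74, are not independent. Over the libraries the other 3 correlated with H2-Aa at r of 0.985 to 0.991. DESeq2 called none of the 7 (0.464% of all genes) and limma-voom with sample weights none (0.130%), with 4 and 0 members at an unadjusted p under 0.05 beside 8.41% and 8.64% of all genes. For every member the WT and KO libraries overlapped, where 2.70% of all genes tested had groups that did not and 1.26% had every KO library below every WT library.

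**Figure D1:**
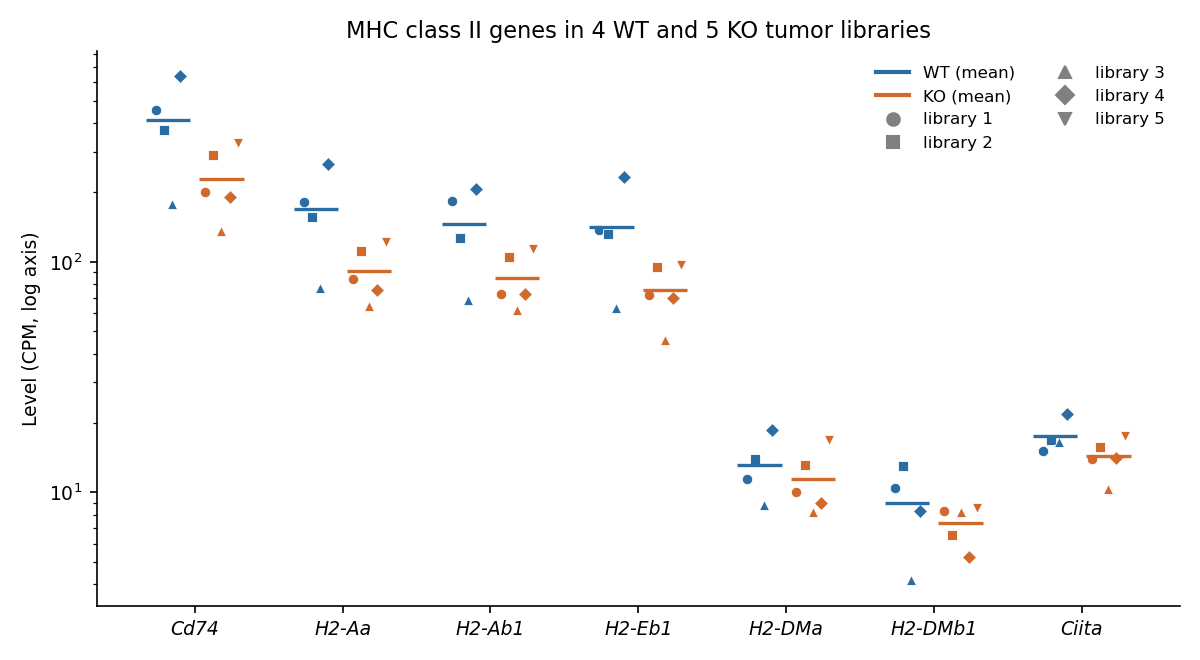
Level of each of the 7 MHC class II genes (CPM, log axis) in the 4 WT (blue) and 5 KO (orange) libraries, with the symbol giving the library number and the bar the group mean. For Cd74 and the 3 chains, WT 1, WT 2 and WT 4 lie above all KO libraries and WT 3 lies among them.

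H2-Aa (ENSMUSG00000036594.15, chromosome 17, 34282744 to 34287823, GRCm38) encodes the alpha chain of the I-A molecule, the class II molecule that C57BL/6 mice display. Its level was 181, 156, 76.8 and 266 CPM in WT 1 to WT 4, and 84.3, 111, 64.0, 75.6 and 121 CPM in KO 1 to KO 5. Thus 3 WT libraries stood above all 5 KO libraries, while WT 3 stood below 3 of them. WT averaged 170.2 ± 78.1 CPM (SD, n = 4) and KO averaged 91.3 ± 24.1 CPM (SD, n = 5). The log2 fold change was -0.90 ± 0.30 (SE; edgeR unadjusted p = 0.0132, adjusted p = 0.616).

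Its partner H2-Ab1 (ENSMUSG00000073421.6, chromosome 17, 34257689 to 34269419) encodes the I-A beta chain. It stood at 183, 127, 68.3 and 207 CPM in WT 1 to WT 4 and at 72.7, 105, 61.6, 72.6 and 113 CPM in KO 1 to KO 5. The order was nearly that of H2-Aa, with WT 3 now below 4 KO libraries. The log2 fold change was -0.78 ± 0.29 (SE; edgeR unadjusted p = 0.0223, adjusted p = 0.616), from means of 146 ± 62.0 and 85.1 ± 22.7 CPM (SD).

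H2-Eb1 (ENSMUSG00000060586.11, chromosome 17, 34305867 to 34316674) encodes the beta chain of the I-E molecule, whose alpha chain gene is defective in C57BL/6 mice. H2-Eb1 RNA was present all the same, at 137, 132, 63.0 and 232 CPM in WT 1 to WT 4 and at 72.1, 94.5, 46.0, 69.7 and 96.4 CPM in KO 1 to KO 5. The alpha chain row, H2-Ea-ps, had 0 counts in all 9 libraries. H2-Eb1 thus followed the I-A genes across libraries although its own partner was not detected, and WT 3 was again the only WT library among the KO values. Its log2 fold change was -0.90 ± 0.32 (SE; edgeR unadjusted p = 0.0173, adjusted p = 0.616).

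Cd74 (ENSMUSG00000024610.15, chromosome 18), the invariant chain gene, was the most abundant member. It stood at 455, 373, 178 and 639 CPM in WT 1 to WT 4 and at 201, 290.2, 136, 191 and 329 CPM in KO 1 to KO 5. WT 4 was highest and KO 3 lowest, as for the 3 chains, and the means were 411 ± 191 and 229 ± 78.2 CPM (SD). The log2 fold change was -0.84 ± 0.34 (SE; edgeR unadjusted p = 0.0298, adjusted p = 0.616).

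The genes of the H2-DM peptide exchanger had smaller fold changes than the chains and Cd74. H2-DMa (ENSMUSG00000037649.10, chromosome 17, 34119541 to 34139101), its alpha chain, stood at 11.4, 14.0, 8.81 and 18.6 CPM in WT 1 to WT 4 and at 10.0, 13.2, 8.21, 9.03 and 16.9 CPM in KO 1 to KO 5. Its log2 fold change was -0.19 ± 0.27 (SE; edgeR unadjusted p = 0.488, adjusted p = 0.871), and -0.38 without KO 5. KO 5 here lay above 3 of the 4 WT libraries. The annotated span of H2-DMa overlaps Brd2 on the opposite strand, and no source used here gives the strand setting of the counting, so reads in shared bases are uncertain.

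H2-DMb1 (ENSMUSG00000079547.4, chromosome 17, 34153072 to 34160230), the beta chain, stood at 10.5, 13.0, 4.15 and 8.28 CPM in WT 1 to WT 4. In KO 1 to KO 5 it stood at 8.27, 6.52, 8.21, 5.24 and 8.55 CPM. Its lowest library was WT 3 and its highest WT 2, so the whole KO range lay inside the WT range. The log2 fold change was -0.27 ± 0.30 (SE; edgeR unadjusted p = 0.382, adjusted p = 0.837). It was -0.037 without WT 2 and -0.52 without WT 3. A close copy, H2-DMb2, stood at 0.163 to 1.03 CPM, and reads that match both copies equally well cannot be placed.

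Ciita (ENSMUSG00000022504.10, chromosome 16, 10480059 to 10528418), the transactivator, varied least among the members. It stood at 15.1, 16.9, 16.6 and 21.9 CPM in WT 1 to WT 4 and at 14.0, 15.8, 10.3, 14.1 and 17.6 CPM in KO 1 to KO 5. Its highest library, WT 4, was 2.12-fold above its lowest, KO 3, where the same ratio was 4.16 for H2-Aa, 5.05 for H2-Eb1 and 4.69 for Cd74. WT 3, low for the chains and Cd74, was not low for Ciita. The log2 fold change was -0.30 ± 0.18 (SE; edgeR unadjusted p = 0.134, adjusted p = 0.691). Its span overlaps Dexi on the opposite strand.

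WT 3 and WT 4 set much of the size of these differences. Without WT 4 the log2 fold changes of H2-Aa, H2-Ab1, H2-Eb1 and Cd74 were -0.60, -0.57, -0.55 and -0.55, that of Ciita was -0.18 and that of H2-DMa 0.0096. Without WT 3 the first 4 were -1.14, -1.01, -1.14 and -1.09. Without both WT 1 and WT 4, the casein-rich libraries, they were -0.35, -0.20, -0.36 and -0.27. WT 4 and WT 1 also ranked 1 and 2 of all libraries for each of these 4 genes. Leaving them out thus had to lower the WT mean, and a link to the caseins was not tested. No member was called in any of these fits. The count of members at an unadjusted p under 0.05, 4 with all libraries, was 0 without WT 4 and 0 without WT 1 and WT 4, and 2 without WT 1 or without KO 3.

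**Figure D2:**
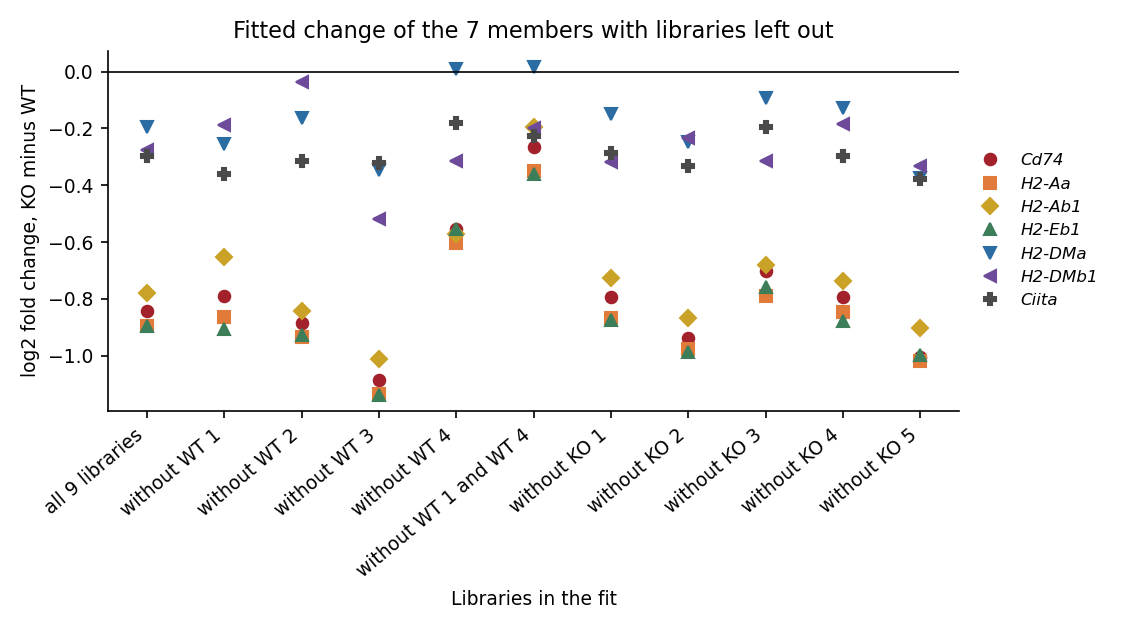
log2 fold change (KO minus WT) of the 7 members, 1 symbol per gene, fitted with all 9 libraries and with libraries left out, as named on the horizontal axis. Cd74 and the chains lie below the other members in every fit that left out 1 library, and all values move toward 0 when WT 4, or WT 1 and WT 4, are left out, except that H2-DMb1 lies lower without WT 4.

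Per kilobase of exon, which allows levels of different genes to be compared, the invariant chain was followed by the chains, then H2-DM, then Ciita. In WT the level per kilobase was 245 ± 114 CPM for Cd74, 72.6 ± 35.7 for H2-Eb1, 57.0 ± 24.1 for H2-Ab1 and 44.8 ± 20.6 for H2-Aa (SD, n = 4). It was 5.33 ± 2.22 for H2-DMb1, 3.83 ± 1.21 for H2-DMa and 1.85 ± 0.311 for Ciita. In KO the order was the same, from 137 ± 46.6 for Cd74 to 1.51 ± 0.282 for Ciita (SD, n = 5). Cd74 exceeded H2-Eb1 in 9 of 9 libraries, H2-Ab1 exceeded H2-Aa in 9 and H2-DMa exceeded Ciita in 9. The neighbours H2-Eb1 and H2-Ab1 kept their order in 7 of 9 libraries and differed by less than their SD in both genotypes. H2-DMb1 and H2-DMa also kept theirs in 7 of 9, and their ranges overlapped in both genotypes. Lengths were those of all annotated exons together, so a gene with long exons that few of its transcripts use reads low on this scale.

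The chains and the invariant chain moved together from library to library, in both genotypes. Over the 9 libraries, log2 CPM of H2-Aa correlated with that of Cd74 (Pearson r = 0.991, Spearman rho = 0.983), H2-Eb1 (r = 0.988, rho = 0.983) and H2-Ab1 (r = 0.985, rho = 0.983). For Cd74 and H2-Eb1 the exact permutation p was 5.51e-06 and for H2-Ab1 8.27e-06, each 3.31e-05 after adjustment over the 12 relations computed here, and the p of rho was 4.96e-05 for all 3. Without WT 4 and KO 3, the libraries farthest from the median of H2-Aa, r was 0.989, 0.989 and 0.980, and with each genotype's mean removed it was 0.991, 0.982 and 0.978.

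The other members followed H2-Aa more loosely. For H2-DMa r was 0.831 (exact permutation p = 0.00632, adjusted 0.0172) with rho = 0.867 (p = 0.00451), and r was 0.644 without WT 4 and KO 3 (exact permutation p = 0.126). For Ciita r was 0.770 (exact permutation p = 0.0122, adjusted 0.0209) with rho = 0.717 (p = 0.0369). The relation with Ciita rested on WT 4 and KO 3, without which r was 0.372 (exact permutation p = 0.388). For H2-DMb1 r was 0.555 (exact permutation p = 0.122, adjusted 0.162) with rho = 0.733 (p = 0.0311), and r was 0.842 without WT 4 and KO 3 (exact permutation p = 0.0228).

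**Figure D3:**
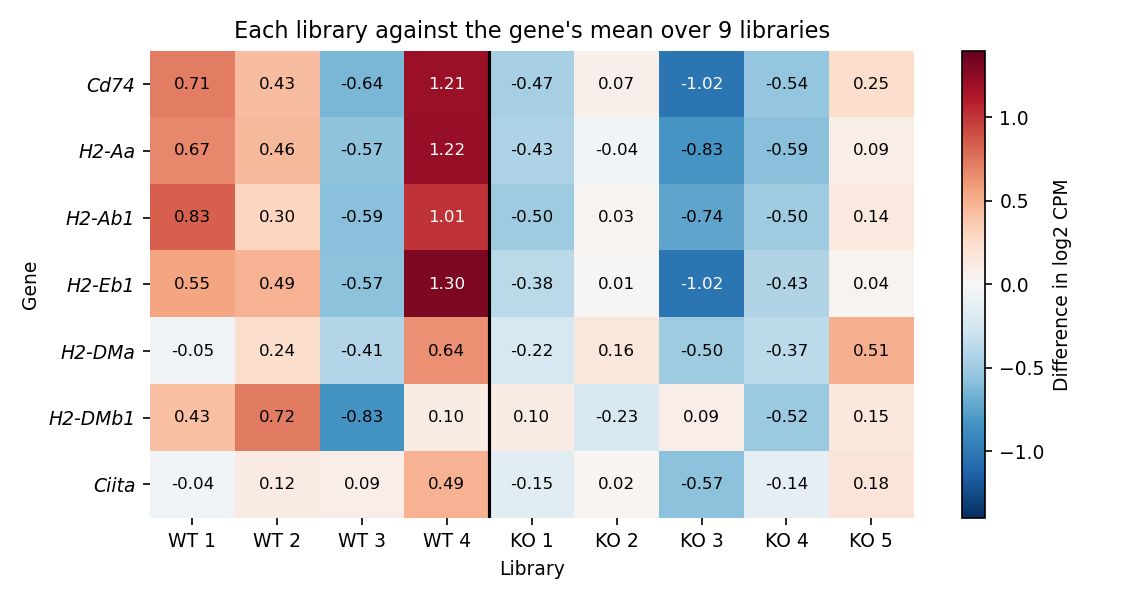
Difference in log2 CPM between each library (columns, WT left and KO right of the line) and the gene's mean over 9 libraries, for the 7 members (rows); red is higher and blue lower. The rows of Cd74, H2-Aa, H2-Ab1 and H2-Eb1 are alike, from 1.01 to 1.30 in WT 4 and from -1.02 to -0.74 in KO 3, whereas Ciita spans only -0.57 to 0.49.

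Ratios within a library show the same split. The sum of the 3 chains ranged 4.11-fold over the libraries, while the ratio of Cd74 to that sum stayed between 0.855 and 0.906 in WT and between 0.795 and 0.992 in KO. The ratio of H2-Aa to H2-Ab1 stayed between 0.990 and 1.29 in all libraries. Against Ciita, the summed chains stood at 33.2, 24.5, 12.5 and 32.2 in WT 1 to WT 4 and between 15.5 and 19.7 in KO. This ratio was thus higher than in any KO library in 3 WT libraries and lower than in all of them in WT 3. The ratio of H2-DMa to H2-Ab1 was 0.0978 ± 0.0287 in WT and 0.134 ± 0.0102 in KO (SD), with overlapping ranges.

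The other class II chains were nearly silent. H2-Oa and H2-Ob, which form the H2-DO inhibitor of peptide exchange typical of B cells, stood at 0 to 0.895 CPM each, from at most 4 counts in a library, and H2-Eb2 had 1 count in WT and 1 in KO. None of the 5 other class II genes in the table passed the filter on low counts. The promoter windows listed for H2-Oa, H2-Ob, H2-Eb2 and H2-DMb2 each held a Y motif, and all of these but that of H2-Oa held an X motif too, so these letters were also present at genes with almost no reads.

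Genes of endosomal processing had fold changes of the same sign as the chains. All 9 were tested and negative, and their median on the log2 scale was -0.53. None was called, where 0.0886% of all genes were, and 5 reached an unadjusted p under 0.05, where 4.59% of all genes did so as lower in KO. Cst3, encoding the protease inhibitor cystatin C, had -1.22 ± 0.41 (SE; adjusted p from edgeR 0.616), but -0.64 without WT 1, where it stood at 212 CPM beside 36.6 to 112 CPM in the other WT libraries. Ctss, encoding cathepsin S, which trims the invariant chain, stood at 225, 165, 128 and 254 CPM in WT 1 to WT 4 and 99.3, 104, 64.9, 72.8 and 197 CPM in KO 1 to KO 5. KO 5 was the only KO library inside the WT range of Ctss, and its log2 fold change was -0.84 ± 0.31 (SE; edgeR adjusted p = 0.616). The asparaginyl endopeptidase gene Lgmn had -0.63 ± 0.24 and the cathepsin D gene Ctsd -0.53 ± 0.22, the latter -0.26 without WT 1.

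Taken as a set, the factors that hold CIITA at the promoter showed little difference. The 7 genes for RFX, NF-Y and CREB subunits had a median log2 fold change of -0.013, and 4 of them were negative. With all libraries, none had an unadjusted p under 0.05. The RFX subunit gene Rfx5 averaged 60.5 ± 6.14 CPM over WT and 66.3 ± 8.09 CPM over KO libraries (SD), and its log2 fold change was 0.13 ± 0.13 (SE). Rfxank, another RFX subunit, had -0.39 ± 0.25, and -0.65 without KO 2 (edgeR unadjusted p = 0.00594, adjusted p = 0.775). The NF-Y subunit genes Nfyc and Nfyb had 0.24 ± 0.15 and -0.14 ± 0.13. Nfyc had 0.37 without WT 3 and 0.14 without KO 4, Nfyb -0.057 without WT 3, and Rfx5 0.077 without WT 1 and 0.20 without KO 3.

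Among the inducers of Ciita, the interferon gamma gene itself was barely seen. Ifng had 1 count over the WT and 3 over the KO libraries, at most 2 in a library. Of the 10 other genes, which encode its receptor, kinases and transcription factors and the myeloid and lymphoid regulators of Ciita, 7 were negative and none had an unadjusted p under 0.05, with a median log2 fold change of -0.17. The receptor genes Ifngr1 and Ifngr2 had -0.40 ± 0.22 and -0.18 ± 0.21 (SE). They were -0.079 and 0.096 without WT 1, and Ifngr2 was -0.31 without WT 2. Jak2, a kinase of this receptor, had -0.23 ± 0.25, with 0.089 without WT 2 and -0.40 without WT 4. Spi1, encoding the myeloid factor PU.1, had -0.41 ± 0.35, with 0.032 without WT 4 and -0.62 without WT 3.

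Partners on the T cell side and costimulatory genes were low in all libraries. Of 6 genes, 3 passed the filter on low counts: Lag3, an inhibitory receptor for class II on T cells, Cd86, a ligand of CD28, and Icosl, the ligand of ICOS. WT libraries had 1.5 to 3.13 CPM of Lag3, KO libraries had 0.657 to 1.88 CPM, and the fitted value was -0.80 ± 0.36 (SE; edgeR unadjusted p = 0.0463, adjusted p = 0.622). Cd86 and Icosl had -0.37 ± 0.39 and 0.15 ± 0.25. Cd86 had -0.089 without WT 1 and -0.61 without WT 3, and Icosl 0.020 without KO 2 and 0.26 without KO 3. Cd4, the coreceptor that binds class II, was not tested and stood at 0.722 to 3.72 CPM.

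Class I presentation, the parallel route for cytosolic peptides, served as a comparison and was near even. Its 10 genes had a median log2 fold change of -0.059, 7 negative and 3 positive, with none at an unadjusted p under 0.05. Tapbp, encoding tapasin, had -0.25 ± 0.15 (SE), and -0.091 without WT 1. Psmb10, an immunoproteasome subunit, had -0.18 ± 0.18, with -0.059 without WT 4 and -0.28 without WT 3. Nlrc5, the transactivator of class I genes and a relative of Ciita, had 0.49 ± 0.36, with 63.3, 182, 125 and 243 CPM in WT 1 to WT 4 and 137 to 300 CPM in KO (SE; edgeR unadjusted p = 0.198, adjusted p = 0.726). It had 0.24 without WT 1 and 0.80 without WT 4.

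**Figure D4:**
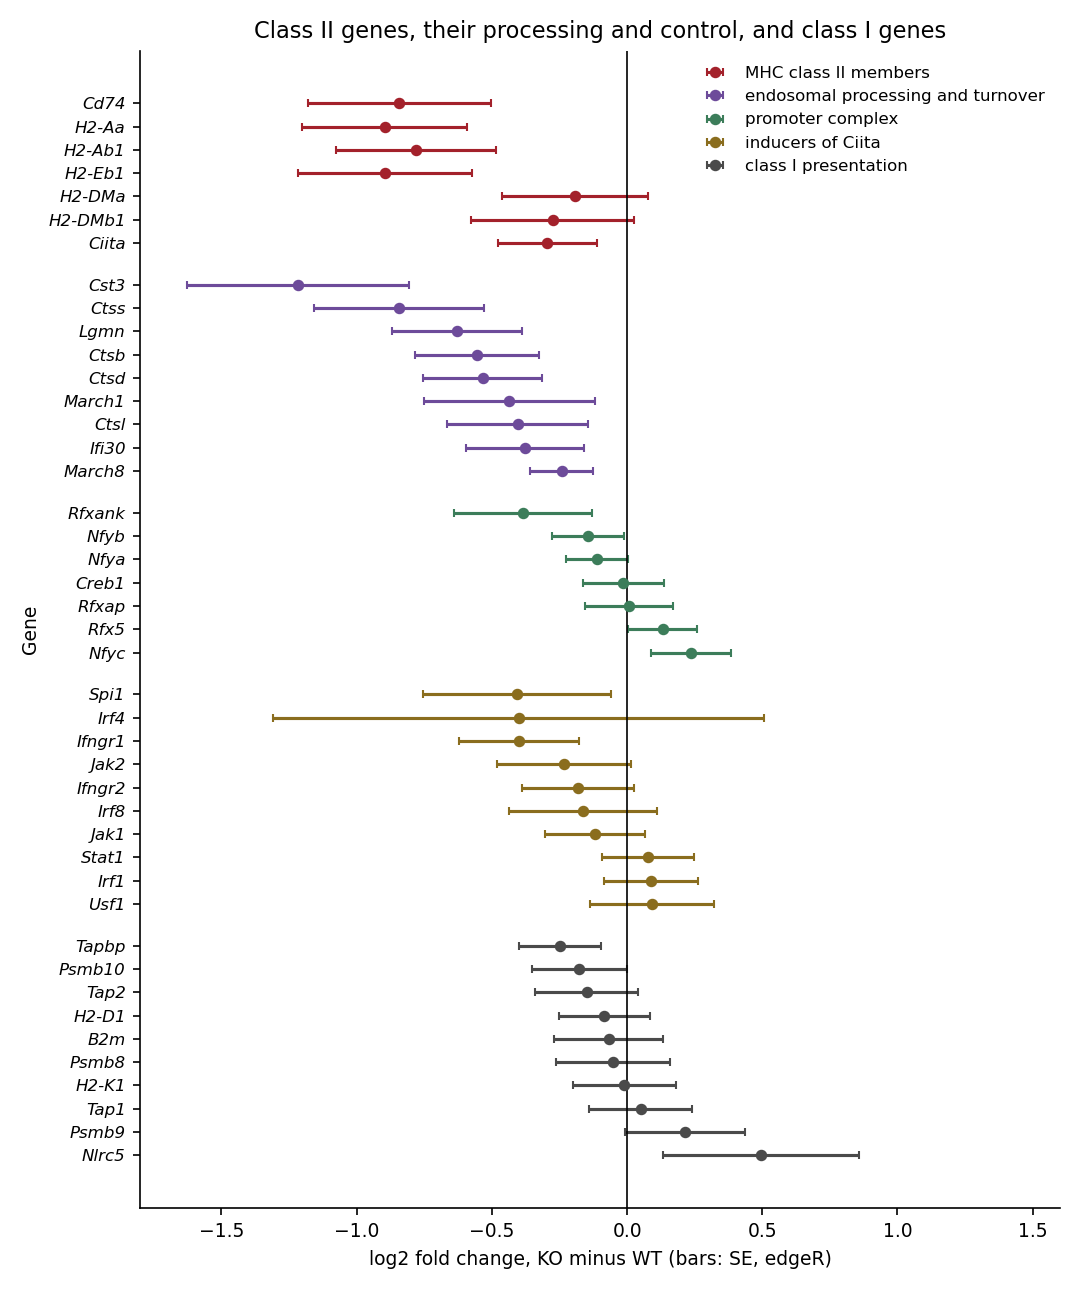
log2 fold change (KO minus WT) with its SE from edgeR for the 7 class II members and for the tested genes of endosomal processing, the promoter complex, the inducers of Ciita and class I presentation. Members and processing genes lie left of 0, and the other sets spread on both sides of it.

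The class II chains share their stretch of chromosome 17 with transporter and immunoproteasome genes of class I presentation, and the targeted locus lies on the same chromosome. From H2-DMa to H2-Eb1 the region spans 197 kb, and the end of H2-Eb1 lies 640 kb before Hspa1b. It holds 11 protein-coding genes, 6 of them not members, of which 4 were tested. Psmb9 and Psmb8, encoding immunoproteasome subunits, had log2 fold changes of 0.22 ± 0.22 and -0.051 ± 0.21 (SE). The peptide transporter genes Tap1 and Tap2, which lie between H2-DMb1 and H2-Ab1, had 0.051 ± 0.19 and -0.15 ± 0.19. Psmb9 had 0.059 without WT 1 and 0.34 without WT 4, and Tap2 -0.027 without KO 3 and -0.24 without WT 3. All 4 had edgeR adjusted p-values of 0.821 to 0.962. The signs of Tap1, Tap2 and Psmb8 turned in at least 1 alternative fit each. Neighbouring genes in the region thus gave values on both sides of 0, and the difference between them and the chains was not tested.

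**Figure D5:**
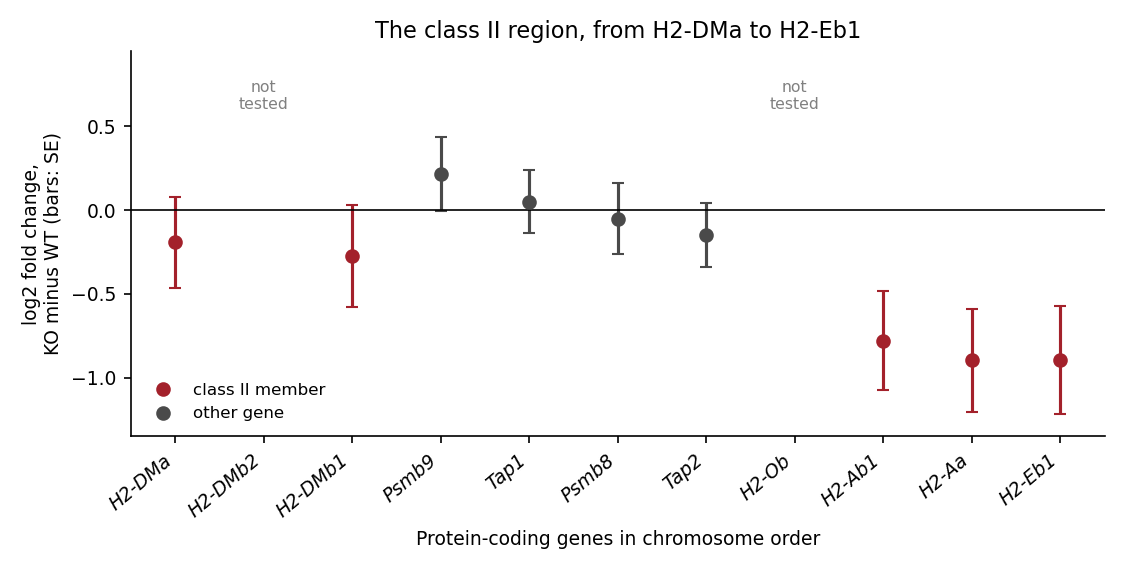
log2 fold change (KO minus WT) with its SE from edgeR for the 11 protein-coding genes from H2-DMa to H2-Eb1 in chromosome order, class II members in red and other genes in grey; H2-DMb2 and H2-Ob did not pass the filter on low counts. The 3 chain genes lie between -0.90 and -0.78, and the 4 other genes between -0.15 and 0.22.

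Markers of the cells that usually carry class II had mostly negative fold changes, none of which passed the test, and so did markers of stromal cells and tumor epithelium. In bulk RNA, fewer cells of a type and less RNA per cell cannot be told apart. The 14 macrophage markers were all tested and all negative, the median being -0.62 on the log2 scale, and 2 reached an unadjusted p under 0.05, where 4.59% of all genes did so as lower in KO. The 7 endothelial markers, all negative, had a median of -0.84 with 3 at that level. Of 8 fibroblast markers 7 were negative, with a median of -0.79 and 5 at that level, and of 7 tumor epithelium markers 6 were negative, with a median of -0.45 and 2 at that level. The macrophage markers summed to 848, 593, 536 and 831 CPM in WT 1 to WT 4 and 396, 344, 282, 430.0 and 712 CPM in KO 1 to KO 5. KO 5 was thus the only KO library within the WT range of the macrophage sum. The summed chains stood at 0.632 ± 0.194 of that sum in WT and 0.612 ± 0.172 in KO (SD), with WT libraries at 0.388 to 0.849 and KO libraries at 0.465 to 0.903. The chains alone summed to 458 ± 206 CPM over WT and 252 ± 66.9 CPM over KO libraries (SD). The mean ratio to the macrophage sum was nearly the same in both groups, with wide overlapping ranges. Whether macrophages play a part in the difference was not tested. Against the sum of 6 genes of all leukocytes the ratio was 1.30 ± 0.523 in WT and 0.988 ± 0.217 in KO.

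Dendritic cell, B cell and T cell markers were sparse. Of 12 dendritic cell markers 5 were tested, all negative with a median of -0.34. The list summed to 45.0 to 69.2 CPM in the WT libraries, with 32.3 to 74.5 CPM among KO, most of it from Itgax, an integrin that tumor macrophages also carry. Xcr1 and Cd209a, which mark conventional and monocyte-related dendritic cells, never exceeded 3 counts. Among B cell markers, Ighm passed the filter on low counts. Pax5 and Cr2 did not pass it, though they reached 13 and 10 counts in a library. Cd79a, Cd79b and Ms4a1 had at most 3 counts in every library, so these last B cell genes were at the limit of detection. The 10 T and NK cell markers gave 10.3 to 19.6 CPM in the WT libraries, with 3.12 to 36.6 CPM among KO and the highest value in KO 5.

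Across libraries H2-Aa followed the macrophage, dendritic cell and leukocyte lists and showed weaker relations with the stromal and epithelial ones. With the mean log2 CPM of the macrophage markers r was 0.821 (exact permutation p = 0.00735, adjusted 0.0172) and rho 0.800 (p = 0.0138). With the dendritic cell markers r was 0.803 (exact permutation p = 0.00860, adjusted 0.0172) and rho 0.917 (p = 0.00131). Their mean held only the 5 of 12 markers that passed the filter on low counts, among them Itgax, which tumor macrophages also carry. With the leukocyte genes r was 0.782 (exact permutation p = 0.0140, adjusted 0.0211) and rho 0.833 (p = 0.00827). Of these 3 relations, that with the 5 tested dendritic cell markers kept a p under 0.05 without WT 4 and KO 3 (r = 0.767, exact permutation p = 0.0419). For macrophages and leukocytes r was then 0.644 and 0.629 (exact permutation p = 0.127 and 0.132), with 7 libraries left. Within genotypes r was 0.709, 0.695 and 0.679 for the 3 lists. The permutations mixed the genotypes, so their p-values also count any genotype difference shared with H2-Aa. No p-value was computed within genotypes.

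With the fibroblast markers r was 0.410 and rho 0.417, with the endothelial markers 0.323 and 0.10, and with tumor epithelium 0.222 and 0.233. Their exact permutation p-values for r were 0.274, 0.403 and 0.582, and 0.328, 0.440 and 0.582 adjusted, and for rho 0.270, 0.810 and 0.552. Without WT 4 and KO 3 r was 0.485, 0.463 and 0.490. Within genotypes r was -0.15, 0.010 and -0.078. In level, the fibroblast sum ranged from 537 to 742 CPM in the WT libraries and reached at most 421 CPM among KO. Most of that sum came from the collagen genes Col1a1 and Col1a2, so it is largely a collagen level. The part of any cell type in the class II difference was not tested.

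The genes whose levels over the 9 libraries were most like the mean of the members were Axl, Atp2b2, Ly86, Cybb, Jph1, H2-T23, Apbb1ip, Atp6v0d1, Themis2 and Klra2. They were picked for their Pearson r with that mean, which ran from 0.920 for Klra2 to 0.973 for Axl, and r within genotypes ran from 0.885 for Klra2 to 0.965 for Axl. Axl encodes a receptor kinase for apoptotic cell uptake, Ly86 the MD-1 partner of RP105, and Cybb the phagocyte NADPH oxidase subunit. H2-T23 encodes the class Ib molecule Qa-1. The log2 fold changes of the 10 genes ran from -1.18 ± 0.44 for Atp2b2 to -0.22 ± 0.13 for Atp6v0d1 (SE), and edgeR called none of them. Without WT 4 Atp2b2 had -0.70.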

How the data were processed

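RNA libraries of 9 tumors had been made from ribosome-depleted RNA with a stranded kit and sequenced as paired ends, per the labels' protocols. The authors deposited unnormalized counts per gene and library, with no normalization. The submitters' processing notes list STAR 2.5.4a, Trimmomatic 0.36 and FastQC 0.11.5 with GRCm38. No source used here gives the annotation release or strand setting. Entries naming no gene (unmapped 11.0% to 27.1%, multimapped 5.50% to 9.53%, no feature 34.0% to 50.4%, ambiguous 0.971% to 1.23% of fragments) stayed out of library sizes and tests. Of 55401 mouse identifiers, 55141 matched a GENCODE M21 symbol. Groups came from the sample titles.

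Counts were fitted over the whole table with edgeR 4.0.16 in R 4.3.3 (TMM, filterByExpr, genotype as the only term), two-sided, with Benjamini-Hochberg adjustment over 14665 genes and a threshold of 0.05. An SE is the log2 fold change over the square root of F. CPM uses TMM-scaled totals of the tested genes, and log2 CPM a prior count of 2. Permutation tests enumerated all pairings of libraries without regard to genotype and are two-sided (numpy 2.4.6). On simulated counts for KO against WT (14665 genes, 200 changed), edgeR recovered 90 genes changed 2-fold with 3 false calls and 184 changed 4-fold with 10.

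The members, gene lists and tests were chosen with earlier results of these data known. Named genes are the members, up to 4 per pathway list with the smallest unadjusted p, the tested genes between the outermost H2 members and the 10 most alike genes (average log2 CPM 1 or more); others are named for their role. Alternatives were DESeq2 1.42.0, limma-voom 3.58.1 with sample weights, other scaling, other count filters, age as a covariate, the replicate number as a block, an adjusted p under 0.1, each library left out, and WT 1 and WT 4 left out.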

Additional observations from a re-analysis of the deposited data

Results flagged for a closer look

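Among 94 groups of 4 or 5 libraries checked for a library far from the rest, 8 were flagged, where chance gives about 1 in 20. None concerned a member. KO 2 was high for the kinase gene Jak2, at 155 CPM beside at most 100.5 CPM in the other KO libraries, and for Rfxank, at 45.8 beside 25.8 CPM. KO 4 was high for Nfyc, at 53.1 beside 42.9 CPM. WT 1 was high for Ifngr1, at 95.8 beside 49.7 CPM, and for the sum of endothelial markers, at 132 beside 51.7 CPM. KO 5 was high for Psmb8, at 81.6 beside 56.7 CPM, for the sum of leukocyte genes, at 367 beside 250.4 CPM, and for the sum of T and NK cell markers, at 36.6 beside 10.8 CPM.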

How the results depend on the processing

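No member was called under any alternative, including an adjusted p under 0.1, and the lowest adjusted p of a member was 0.297, with the replicate block. The median log2 fold change of the members ran from -1.01 (without WT 3) to -0.55 (without WT 4) with 1 library left out. It was -0.23 without WT 1 and WT 4 and -0.44 with limma-voom and sample weights. Over all genes, 13 were called, against 68 by DESeq2, 29 with no count filter, 6 among genes averaging 50 counts or more, and 6 to 13 with 1 library left out, with 6 without KO 1, KO 4 or KO 5, 7 without WT 2 or KO 2 and 8 without WT 3. Of 766 refitted values of 39 named genes, 744 kept sign and side of the threshold and 22 changed sign. The sign of H2-DMa turned without WT 1 and WT 4 (0.016) and ran from -0.38 to 0.0096 with 1 library left out, and that of H2-DMb1 turned with limma-voom (0.052). Without WT 1 and WT 4 the values were also 0.043 for Spi1, 0.069 for Ifngr2, 0.34 for Cd86, 0.030 for Tapbp and 0.025 for Jph1. With age as a covariate they were 0.16 for Jak2, 0.14 for Psmb8 and 0.0058 for Tap2, and with library totals alone 0.013 for Psmb8. With 1 library left out the range was -0.62 to 0.032 for Spi1, -0.40 to 0.089 for Jak2, -0.31 to 0.096 for Ifngr2, -0.11 to 0.13 for Tap1 and -0.21 to 0.11 for Psmb8. The causes were not tested. The filter at 50 counts left out H2-DMb1, and Lag3 passed the count filter in only 6 of 9 such fits.

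The labels tie same-numbered WT and KO libraries to no shared animal, litter or batch. Their deviations from the group means correlated at -0.024, 0.38, 0.11 and 0.38 for numbers 1 to 4, and numbers 2 to 4, but not number 1, correlated best with their own number, a hint from the data and not from the design. With the replicate block, in which KO 5 has no partner, 10 genes were called, the members' median was -0.82, none of them was called, and Tap1 had -0.12.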
